A study of Drosophila melanogaster with 8 samples.

Results

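The Cpr genes are the cuticle proteins of Drosophila named for their cytological position, and the family was taken here as every feature whose symbol begins with Cpr followed by a digit. This gave 70 of the 17717 features in the count matrix of a droplet-based single-cell RNA sequencing study of whole embryos. The embryos were at stage 17 and were aged at 25C until between 17 and 18.5 h had passed since laying. All belonged to 1 condition and carried alrm-gal4 with UAS myr::GFP together with 25H07-gal4 and UAS-redstinger::NLS, drivers and reporters chosen for glia, and no wild-type or treated group was compared. The labels give 4 biological replicates sequenced on 2 lanes each, 8 libraries in all.

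Cpr proteins carry the Rebers and Riddiford consensus, a stretch that binds chitin. Epidermal, tracheal and other ectodermal cells secrete them at their apical side, where they become part of the layered cuticle that covers the larva and lines its airways. Shortly before hatching the first larval cuticle is being completed, and the cuticle differs between body parts in the proteins it is built from.

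The count matrix numbers its libraries from 1 to 8 without naming them. Number n and number n + 4 shared 99.56 to 99.74% of the barcodes of the smaller library and other combinations 0.226 to 0.422%, so a barcode under both numbers was summed to 1 cell, giving 4 unnamed library pairs. Of 38531 cells, 27932 with at least 200 genes and under 20% of unique molecular identifiers (UMIs) from mitochondrial genes were kept, with a median of 4069 UMIs and 1098 genes and between 53891008 and 62254606 UMIs per library pair. Library pair 1 stood apart. Cpr members took 0.535% of its UMIs and 1.03 to 1.07% of those of the other pairs, and it held 184 of the 214 trh cells and 466 of the 970 Tweedle cells described below, but 62 of the 632 Ccp84A cells. Counts are therefore also given without it. Because no label places a library in a replicate, values are given for each library pair and no p-value is given. Levels are UMIs of a class of cells scaled to a total of 1000000 (CPM), and since each molecule is tagged at 1 end and counted whatever its length, they were compared between genes without scaling by length. A molecule read on both lanes was counted in both, so intervals from counts are too narrow and cover counting error only.

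Clusters were built without the Cpr genes and named from marker genes. The cluster led by FBgn0052208, the gene whose symbol in the files is a number joined to Oak, and by CG12519 is called the CG12519 cells here (1018 cells, median 12178 UMIs). FBgn0052208 had a UMI in 53.5% of them. Their label and that of the trh cells overlap, since trh, the transcription factor that specifies the trachea, had a UMI in 85.7% of the CG12519 cells, and btl, the receptor of tracheal branching, in 62.0%. The trh cells (214 cells, median 8585 UMIs) form a second cluster with trh in 83.2% and btl in 44.9% of cells and 7 UMIs of FBgn0052208 in all. The Tweedle cells (970 cells, median 4843 UMIs) had TwdlF, a cuticle protein of the Tweedle family, in 79.1% of cells. The Hex-C cells (1457 cells, median 10404 UMIs) had the hexokinase gene Hex-C in 55.0% and the serpin gene Spn43Ab in 76.3%, and their cluster also passed 4 fat body markers. The sensory clusters (1621 cells in 2 clusters, median 5536 UMIs) had the neuronal gene elav in 82.5% of cells, but also nompA, a matrix protein made by the support cells of sense organs, in 60.6%, so they are not neurons alone. The Ccp84A cells (632 cells, median 5186 UMIs) are a cluster led by CG7203 and genes of the older-named cuticle cluster at 84A. Ccp84Ab had a UMI in 26.4% of them. Other genes at 84A, Ccp84Ag and Ccp84Ae, were higher in the CG12519 cells, so the name covers a part of that gene cluster. The Ccp84A class was added after the clusters were seen.

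Transcription of the family was concentrated in a few members and a few cells. The 68 members with a UMI held 2142140 UMIs, 0.928% of all UMIs. Cpr64Ad and Cpr64Ab alone held 66.5% of them, 7 members reached 90% and 24 members 99%. The CG12519 cells, 3.64% of cells, held 70.8% of Cpr UMIs, the Tweedle cells 11.4%, the Ccp84A cells 10.8%, the sensory clusters 2.76% and the trh cells 1.06%. The Hex-C cells, although more numerous, held 0.105%, and the 15386 cells of the other 23 clusters held 2.54%. Without library pair 1 these shares were 71.4%, 10.3%, 12.0%, 3.07%, 0.225%, 0.109% and 2.39% in the same order. The share of the trh cells rested on pair 1, of whose Cpr UMIs they held 6.46%. The split between the CG12519 and the trh cells also depended on the processing. Their shares were 46.43 and 25.43% at a finer clustering (resolution 2.0), and 48.09 and 8.37% with cells placed one by one by marker UMIs. Without the deepest 8% of cells the CG12519 cells held 50.64%. The CG12519 cells were deep, with 22377689 of the 230848097 UMIs of all genes.

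**Figure D1:**
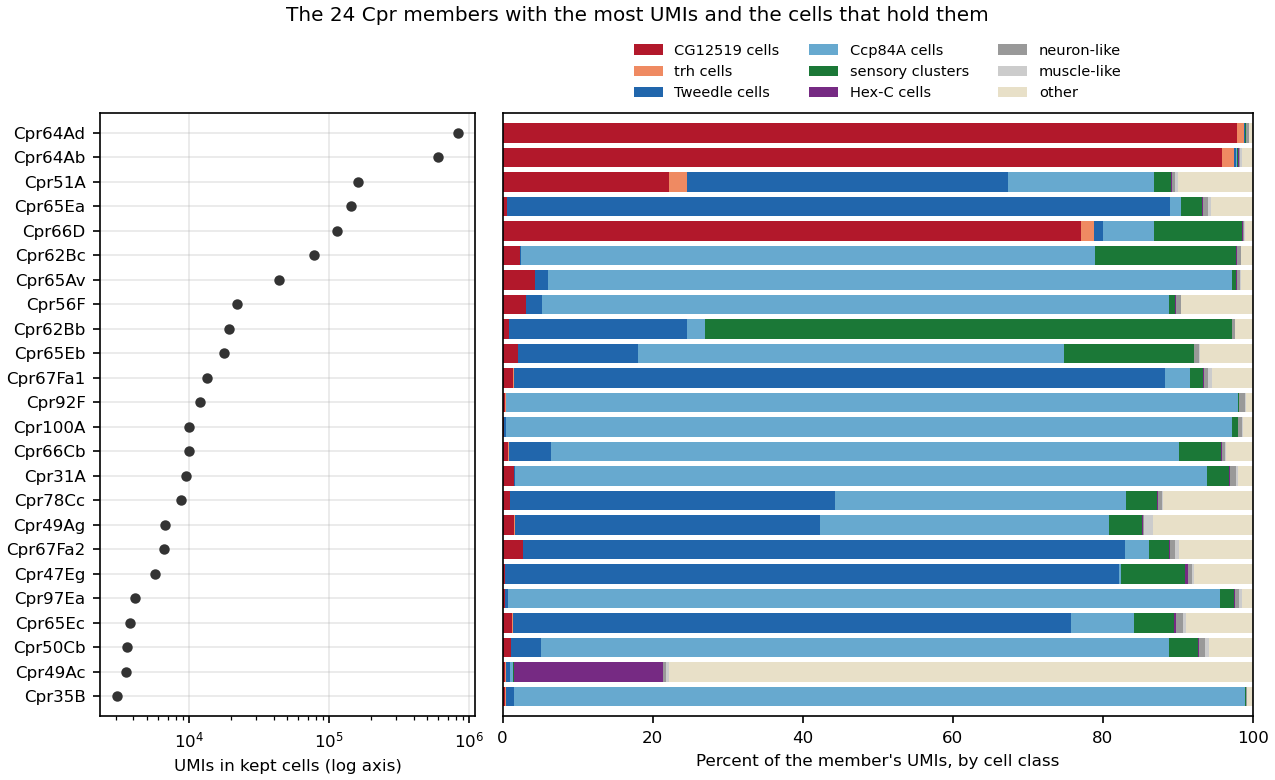
Left, UMIs of the 24 members with the most UMIs on a log axis. Right, the percentage of each member's UMIs that fell in each cell class. The CG12519 cells held 97.9% of the UMIs of Cpr64Ad, the Ccp84A cells 97.6% of those of Cpr92F, and Cpr51A was spread over several classes.

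Within a class, the share of UMIs spent on the family was close between library pairs in the CG12519 cells and far apart in the Tweedle cells. Cpr members took 7.22, 6.72, 7.01 and 6.40% of the UMIs of the CG12519 cells in library pairs 1 to 4. In the Ccp84A cells they took 2.05, 3.72, 2.58 and 4.18%, and in the Tweedle cells 0.886, 5.15, 2.68 and 3.25%. The sensory clusters gave 0.165, 0.419, 0.430 and 0.407%, so pair 1 lay below the other 3 in these last 3 classes. The trh cells gave 0.809, 2.93, 0.713 and 0.657%, the second value from 2 cells. Neuron-like cells, which lay no cuticle and served as the background, had 0.0143, 0.0160, 0.0505 and 0.0182%, and the ranges of the 5 classes named before did not overlap with theirs. The Hex-C cells, at 0.0117, 0.00681, 0.00656 and 0.00695%, lay below the neuron-like cells in every pair. Of the neuron-like and muscle-like cells, 9 had 100 or more Cpr UMIs and held 34.8% of all Cpr UMIs in these background classes, and 5 of the 9 were in library pair 3. What these 9 cells are was not tested.

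**Figure D2:**
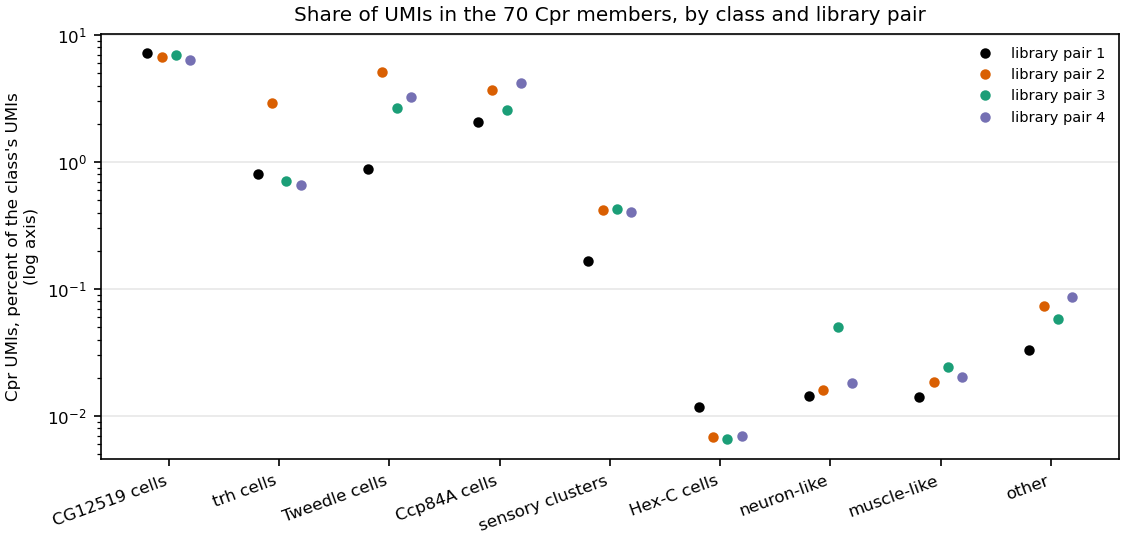
Percentage of a class's UMIs in the 70 Cpr members (log axis), 1 point per library pair. The CG12519 cells sit between 6.40 and 7.22%, while the Hex-C cells sit at or below 0.0117%.

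Of the 70 members, 58 were detected, meaning at least 20 UMIs and a UMI in every library pair, and 43 were on in at least 1 class. A member was called on when it had at least 20 UMIs in the class, a UMI in each pair and at least 2 times the CPM of neuron-like cells within each of the 4 pairs. By the same rule 57.1% of the 12297 features with at least 20 UMIs were on in some class, against 43 of the 59 members that reached 20 UMIs. By class, 25 members were on in the Ccp84A cells (background 9.55% of features), 18 in the Tweedle cells (10.3%), 14 in the sensory clusters (12.9%), 13 in the CG12519 cells (7.23%), 3 in the trh cells (4.94%) and 3 in the Hex-C cells (14.5%). Without library pair 1, 59 members were detected and 52 were on (64.4% of the same features), with 38 in the Ccp84A cells (11.6%), 23 in the Tweedle cells (10.9%), 26 in the sensory clusters (15.7%) and 17 in the CG12519 cells (9.2%). The trh cells (4.4%) and the Hex-C cells (17.8%) had 3 each. A rule over 3 pairs is easier to pass than one over 4, and the shares of all features rose too, except in the trh cells. Of the 43 members, 21 were on in 1 class (37% of features) and 22 in more than 1. The Tweedle and Ccp84A cells shared 12 members, where 6.95% of all features were on in both. The sensory clusters shared 10 with the Ccp84A cells (6.04%) and 8 with the Tweedle cells (5.99%), and the CG12519 cells shared 4 with the Tweedle cells (5.11%). The 3 members on in the trh cells were all on in the CG12519 cells, and 3.64% of features were on in both.

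**Figure D3:**
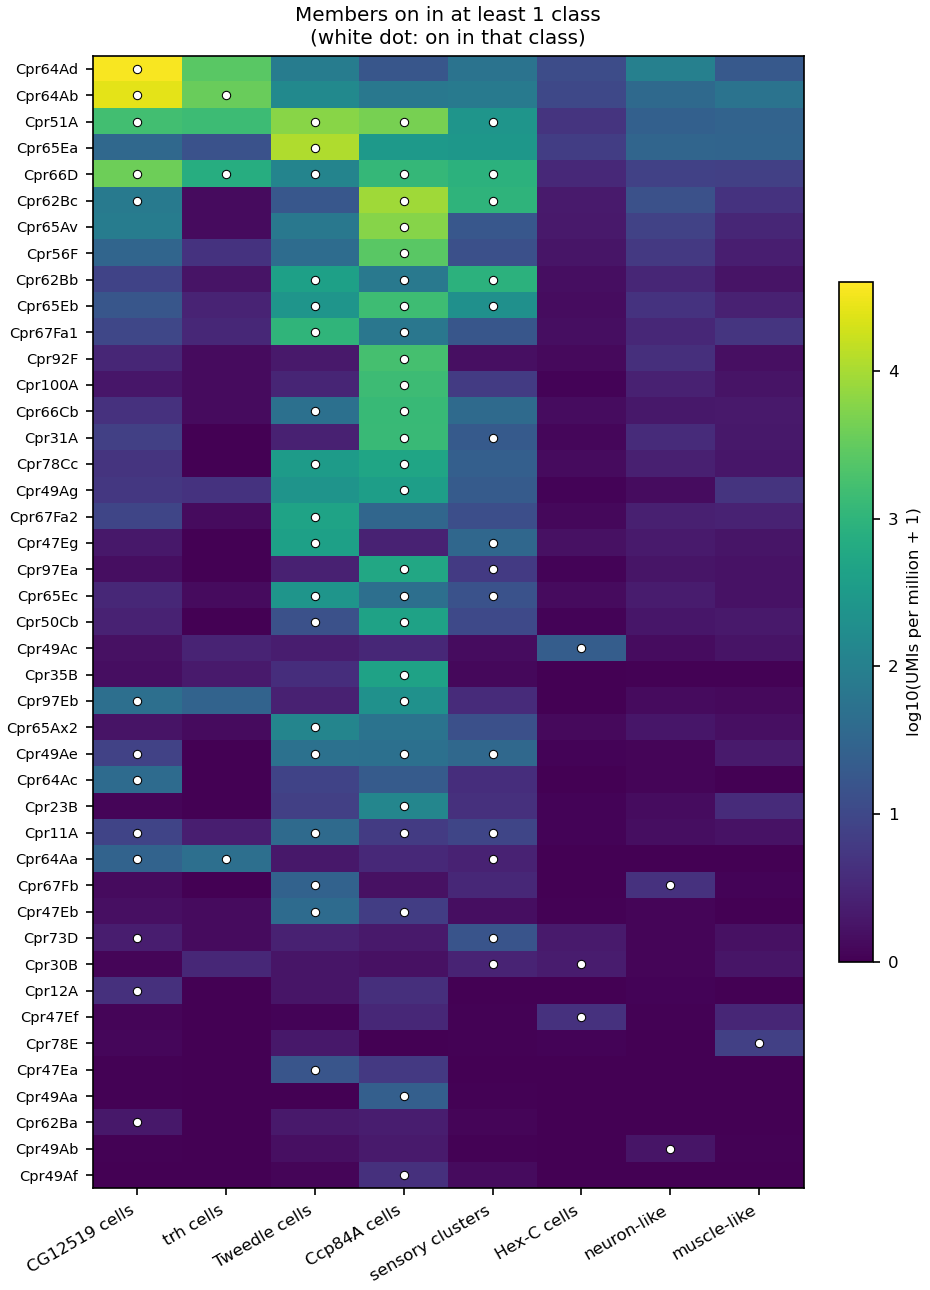
The 43 members called on in at least 1 class, ordered by UMIs, with their level in 8 cell classes as log10 of CPM plus 1. White dots mark the calls, of which the Ccp84A cells have 25 and the trh and Hex-C cells 3 each.

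In the CG12519 cells the Cpr64A genes stood above the rest of the family. These 4 genes are neighbours on chromosome arm 3L in the reference annotation (assembly BDGP6.54), all 4 were on in the CG12519 cells, and together they held 66.6% of all Cpr UMIs. Cpr64Ad was at 36049, 39595, 35607 and 34722 CPM in library pairs 1 to 4. Its level in neuron-like cells was 23.5, 18.1, 292 and 33.2 CPM, and the log2 ratio to them was 9.65 (95% interval over the 4 pairs, 6.68 to 12.62). Cpr64Ab was at 26549, 22161, 28769 and 24111 CPM, with a log2 ratio of 9.85 (8.36 to 11.35). In both genes the 4 pairs lay close together and far above the neuron-like cells, and Cpr64Ad was above Cpr64Ab in every pair. The 2 other genes of the group were much lower. Cpr64Ac was at 39.7 CPM (21.3 to 46.4 over pairs) and Cpr64Aa at 28.5 CPM (20.5 to 47.7). Many cells carried both main genes. At 10 or more UMIs in a cell, 742 of the 1018 cells had Cpr64Ad, 891 had Cpr64Ab and 688 had both, which is 92.7% of the first set and 77.2% of the second. The 10% of cells with the most Cpr64Ad held 66.5% of its UMIs, and the highest cell held 23972.

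Outside the Cpr64A group, Cpr66D and Cpr51A led the CG12519 cells, and library pair 1 was the highest for Cpr66D and the lowest for Cpr51A. Cpr66D was at 8588, 3329, 3669 and 2802 CPM, highest in pair 1, with a log2 ratio to neuron-like cells of 9.11 (8.20 to 10.02). Cpr51A was at 609.9, 1732, 1459.8 and 1991 CPM, lowest in pair 1, with a log2 ratio of 5.68 (4.07 to 7.29). Cpr62Bc followed at 25.4, 103, 69.3 and 90.9 CPM and Cpr97Eb at 47.5 CPM. The other members on there, Cpr11A, Cpr49Ae, Cpr12A, Cpr73D and Cpr62Ba, were at 0.983 to 7.95 CPM. After each cell was thinned to 500 UMIs, Cpr64Ab had a UMI in 88.3% of CG12519 cells, Cpr64Ad in 73.2%, Cpr51A in 34.2% and Cpr66D in 30.8%. The same thinned shares in neuron-like cells were 2.07, 2.67, 1.52 and 0.376%.

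At a finer clustering (resolution 2.0 in place of 1.0) the CG12519 cells fell into 3 clusters that differed in their Cpr genes. The first, of 512 cells, had FBgn0052208 at 2365 CPM. The second, of 455 cells, was led by genes of the Osiris family of membrane-associated proteins, had FBgn0052208 at 57.9 CPM, and kept trh in 82.6% of cells. The third, of 51 cells, had FBgn0052208 at 4922 CPM. Cpr64Ad exceeded Cpr64Ab in the first cluster, with 57593, 43726, 34654 and 36594 against 46617, 17438, 29112 and 21155 CPM in library pairs 1 to 4. In the Osiris-led cluster that order held in pair 1 and turned in the other 3, with Cpr64Ad at 33596, 24299, 24544.0 and 20937 and Cpr64Ab at 24134, 38421, 33429.6 and 38624 CPM. Cpr51A was at 1719, 2316, 2109 and 2549 CPM in the first cluster and at 428, 408, 368 and 556 CPM in the Osiris-led one, and the pairs of these clusters did not overlap. Cpr66D was at 3151 and 5160.1 CPM in these clusters, with overlapping pairs. Of the 117 cells of library pair 1, 97 were in the Osiris-led cluster and 11 in the first, while in the other pairs the first cluster was the larger, so the low Cpr51A of pair 1 in the whole class moved with this difference in makeup. Its part in that value was not tested.

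**Figure D4:**
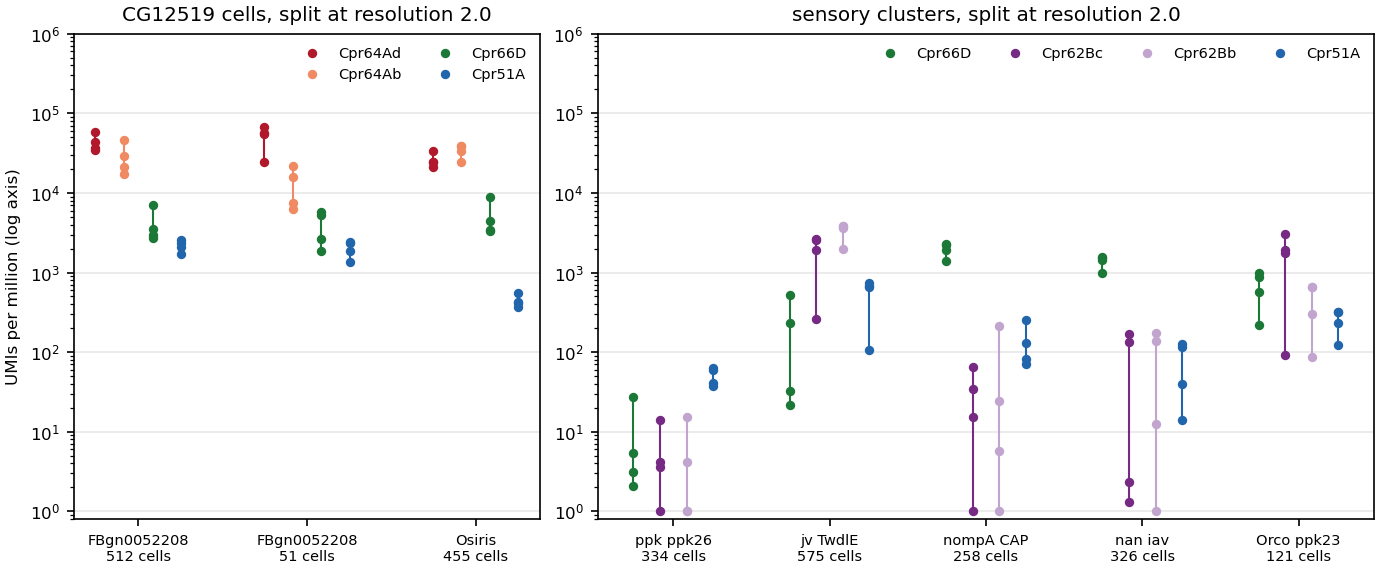
CPM (log axis) of leading members in the finer clusters of the CG12519 cells (left) and of the sensory clusters (right), 1 point per library pair with a line over their range; values under 1 are drawn at 1. Cpr51A is lower in the Osiris-led cluster than in the 512 cells with FBgn0052208, and the ppk and ppk26 neurons lie near the bottom for Cpr66D, Cpr62Bc and Cpr62Bb.

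The trh cells without FBgn0052208 had 3 of the 59 members with at least 20 UMIs on, where 4.94% of all features were on. These 3 were also on in the CG12519 cells, as were 448 of the 607 features on in the trh cells. The call asks for a UMI in library pair 2, which had 2 trh cells. The count and its overlap are therefore not read as a trait of the family. Cpr64Ab was at 2926, 14516, 5947 and 4208 CPM in library pairs 1 to 4, with a log2 ratio to neuron-like cells of 7.71 (5.73 to 9.69). Cpr66D was at 596, 9123, 103 and 409 CPM, with a log2 ratio of 6.54 (1.37 to 11.70), and Cpr64Aa at 45.2, 196, 44.2 and 28.7 CPM. These values come from 184, 2, 20 and 8 cells, so those of pair 2 rest on 2 cells. Cpr64Ad, at 2885, 5409, 428 and 1369 CPM, missed the call in pair 3, where the neuron-like cells were at 292 CPM. Cpr51A, at 1567, 16.3, 565 and 480.3 CPM, missed it in pair 2. In library pair 1, where most trh cells were found, Cpr64Ad was lower than in the CG12519 cells (2885 against 36049 CPM), as were Cpr64Ab (2926 against 26549 CPM) and Cpr66D (596 against 8588 CPM), while Cpr51A was higher (1567 against 609.9 CPM). That order of Cpr51A held in pair 1 only. It was lower in the trh cells in every other pair, and at 1401 against 1586 CPM over all pairs. In pair 1, 97 of the 117 CG12519 cells were in the Osiris-led cluster, where Cpr51A was low. Cpr66D was higher in the trh cells in pair 2, from 2 cells.

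In the Tweedle cells Cpr65Ea and Cpr51A led, and the genes beside Cpr65Ea and Cpr67Fa1 on 3L were on with them. Cpr65Ea was at 4569, 27277, 13752 and 16792 CPM in library pairs 1 to 4, with a log2 ratio to neuron-like cells of 8.67 (6.72 to 10.62). Cpr51A was at 2103, 15975, 8058 and 8494 CPM, with a log2 ratio of 8.07 (5.58 to 10.56). Both genes were lowest in pair 1 and highest in pair 2, and every pair was far above its neuron-like cells, which had 26 to 35.5 CPM of Cpr65Ea and 16.6 to 30.7 CPM of Cpr51A. Cpr67Fa1 was at 645, 2234, 1059 and 1227 CPM, Cpr67Fa2 at 188, 1348, 599 and 530.3 CPM, and Cpr47Eg at 102, 891, 515 and 889.98 CPM. Cpr67Fa1 and Cpr67Fa2 are near-identical copies, so the split of reads between them is uncertain. All 3 genes of the Cpr65E run and all 3 of the Cpr67F run were on in the Tweedle cells, with Cpr65Eb at 250.4 CPM, Cpr65Ec at 248 CPM and Cpr67Fb at 26.6 CPM. The remaining members on there were Cpr62Bb at 404 CPM, Cpr78Cc at 334 CPM, Cpr65Ax2, a near copy of Cpr65Ax1, at 122 CPM, Cpr66D at 117 CPM, and Cpr49Ae, Cpr66Cb, Cpr47Eb, Cpr11A, Cpr47Ea and Cpr50Cb at 12.9 to 51.5 CPM. Over the 18 calls the highest pair exceeded the lowest 10.0 times in the median, and pair 1 was the lowest in 14.

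Single Tweedle cells differed in which of these genes they carried. After thinning, Cpr65Ea had a UMI in 63.3% of Tweedle cells and Cpr51A in 54.3%, against 2.34 and 1.52% of neuron-like cells, while Cpr67Fa1 had one in 16.2% and Cpr47Eg in 7.85%. At 10 or more UMIs in a cell, 581 cells had Cpr65Ea, and Cpr51A was present in 424 of them. Cpr67Fa1 was found in 136 cells, of which 134 also had Cpr65Ea, and Cpr47Eg in 73 cells, of which 67 had Cpr65Ea. The last 2 genes met in 12 cells, 8.82% of the Cpr67Fa1 cells and 16.4% of the Cpr47Eg cells. Since a floor of 10 UMIs depends on a cell's depth, these counts are a description, and whether any of these genes keep together or apart was not tested.

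The Ccp84A cells had the most members on, led by Cpr62Bc and Cpr65Av. Cpr62Bc was at 1686, 10828, 7205 and 9683 CPM in library pairs 1 to 4, with a log2 ratio to neuron-like cells of 9.51 (8.66 to 10.37). Cpr65Av was at 1794, 6495, 3278 and 8614 CPM, with a log2 ratio of 9.74 (7.29 to 12.19). Pair 1 was the lowest in both. Cpr51A was at 3793, 4352, 4121 and 5399.7 CPM, and Cpr56F at 3256, 2699, 2143 and 3044 CPM, with pairs close together. Cpr92F was at 622, 1559.7, 1279 and 2512 CPM, and Cpr65Eb at 1597, 673, 1090.3 and 2569.5 CPM. Cpr100A, Cpr31A, Cpr66Cb and Cpr66D followed at 1142 to 1432 CPM, and a further 15 members were on at 3.40 to 570.4 CPM. Of the 25 members, 9 were on in no other of the 6 classes, against 1.08% of all features. They include Cpr65Av, Cpr56F, Cpr92F, Cpr100A, Cpr35B, Cpr49Ag and Cpr23B, 5 of which lie outside any run of neighbouring members. Cpr49Ag was not particular to the Ccp84A cells, which held 38.5% of its UMIs. It was at 380 CPM in them and at 241 CPM in the Tweedle cells, where it was not called. Cpr35B was uneven, at 1104, 434, 2.53 and 704 CPM.

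The leading genes of the Ccp84A cells were found together in some cells and apart in others. At 10 or more UMIs, Cpr62Bc was found in 293 of the 632 cells and Cpr65Av in 196, and 91 cells had both, 31.1% of the first set and 46.4% of the second. Of the 94 cells with Cpr92F, 88 also had Cpr62Bc, and Cpr56F and Cpr92F shared 12 cells, 10.4 and 12.8% of their sets. Cpr65Eb was carried by few cells. It had a UMI in 9.34% of the Ccp84A cells, its top 10% of cells held 100% of its UMIs, and the highest cell alone held 4348 of 9960. A Ccp84A cell held UMIs of 6 members in the median and of 29 at most, against 4 and 16 in the CG12519 cells, which were sequenced more deeply per cell (median 12178 against 5186 UMIs).

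**Figure D5:**
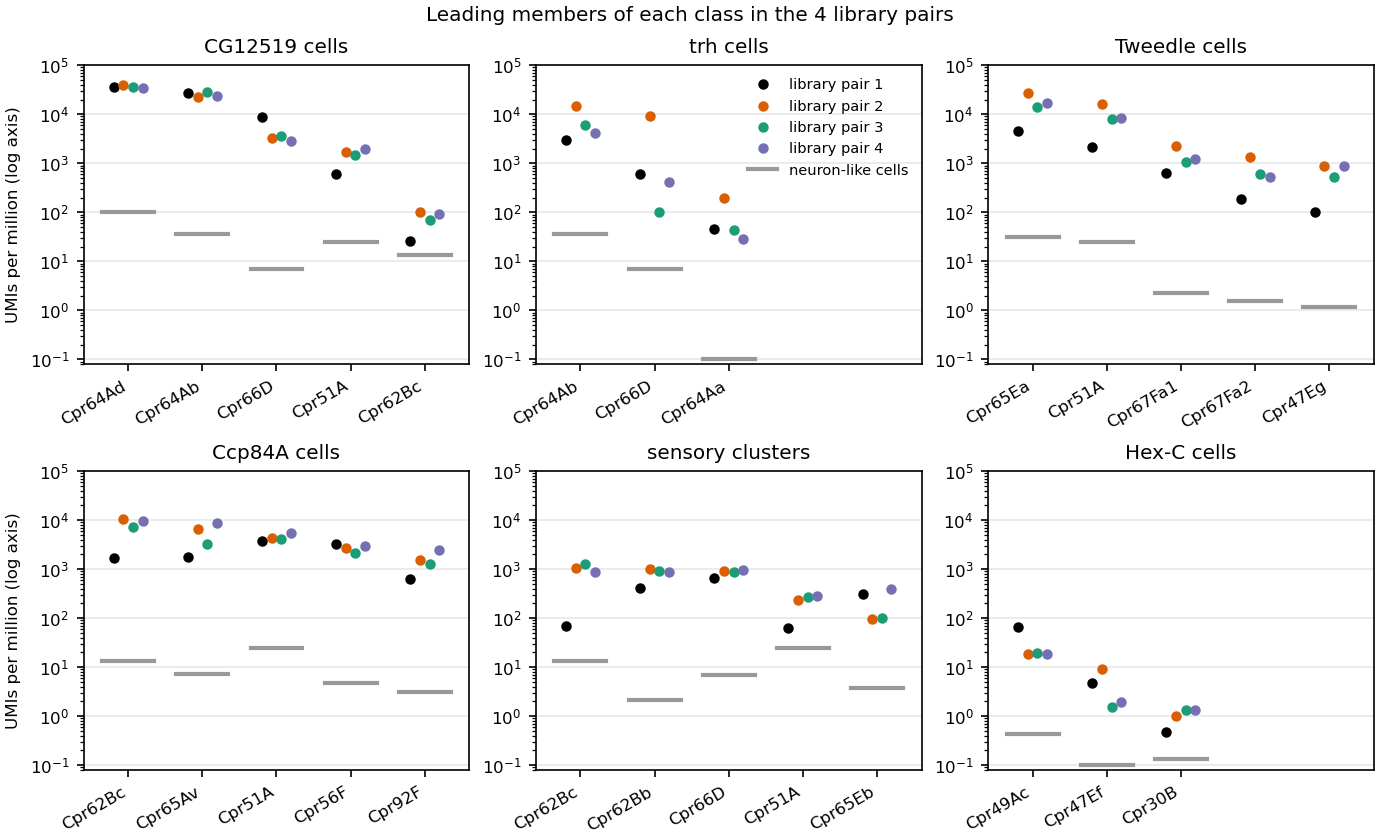
CPM (log axis) of up to 5 leading members that were on in each class, 1 point per library pair, with the level in neuron-like cells as a grey bar (values under 0.1 drawn at 0.1). Points for Cpr64Ad and Cpr64Ab in the CG12519 cells lie close together, those of the Tweedle cells are lowest in pair 1, and those of the Hex-C cells are all under 100 CPM.

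In the sensory clusters Cpr62Bc, Cpr62Bb and Cpr66D were the highest of the 14 members on. Cpr62Bc was at 68.8, 1051, 1291 and 867 CPM in library pairs 1 to 4, with a log2 ratio to neuron-like cells of 6.03 (5.23 to 6.83). Cpr62Bb was at 411, 1013, 942 and 892 CPM, with a log2 ratio of 9.14 (7.90 to 10.38). Cpr66D was at 648, 935, 883 and 955 CPM, with a log2 ratio of 6.81 (5.43 to 8.19). All 3 were lowest in pair 1, and their other 3 pairs lay close together. Cpr51A (64.1, 231, 276 and 287 CPM) and Cpr65Eb (318, 96.5, 102 and 399 CPM) followed. Cpr65Eb was carried by few cells, with a UMI in 97 of the 1621, and the highest cell alone held 1021 UMIs. The 9 further members were at 1.75 to 34.7 CPM, and none of the 14 was on in the sensory clusters and in no other of the 6 classes, against 4.87% of features. Cpr65Ea reached 272 CPM there and was not called, because its ratio fell under 2 in pair 1.

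The finer clustering separated neurons with almost no Cpr UMIs from cells with many, and the members differed between the latter. The 334 cells led by ppk and ppk26, channel subunits of the nociceptive dendritic arborisation neurons, spent 0.0352% of their UMIs on Cpr genes, near the 0.0263% of neuron-like cells, with Cpr66D at 6.29 CPM and nompA in 8.38% of cells. The 575 cells led by CG4982 with jv, an actin-binding protein of bristles, and TwdlE spent 0.929%. There Cpr62Bb was at 1994, 3893, 3849.8 and 3583 CPM and Cpr62Bc at 264, 2647, 2548 and 1906 CPM in library pairs 1 to 4. Cpr66D was instead high in the 326 cells that carried nan and iav, channels of chordotonal neurons, at 983, 1554, 1516 and 1441 CPM, and in 258 cells led by CG10062 with nompA at 1741 CPM, at 1392, 2191, 1919.9 and 2303 CPM. It had a UMI in 89.3 and 82.2% of these cells, against 8.0% of the jv cells, in which its level was 145 CPM. In the 121 cells led by GstE4 with Orco, the coreceptor of odorant receptors, Cpr62Bc was at 91.9, 1765, 3053 and 1929 CPM, and Cpr66D at 216, 573, 884 and 991 CPM. The 4 groups with high Cpr levels had nompA in 62.6, 89.6, 81.4 and 73.6% of cells and elav in 75.8, 97.9, 56.6 and 97.5%, listed as jv, nan and iav, nompA and Orco, so support-cell and neuronal genes were found in the same groups. The part of support cells in these Cpr levels was not tested.

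At 10 or more UMIs in a cell, Cpr62Bc and Cpr62Bb, neighbours on 3L, met in 121 sensory cells, 75.6 and 64.0% of their cells. Cpr66D met Cpr62Bc in 35 cells, 21.9% of the Cpr62Bc cells and 9.72% of the Cpr66D cells. The third gene of that run, Cpr62Ba, had 80 UMIs in all. Cpr62Bb and Cpr62Bc were both on in the Ccp84A cells, at 70.6 and 8791 CPM. In the Tweedle cells Cpr62Bb was on at 404 CPM, and Cpr62Bc, at 16.5 CPM, was not.

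The Hex-C cells had hardly any Cpr UMIs, and their 3 members on were at low levels. Cpr49Ac was at 66.4, 18.4, 19.1 and 18.5 CPM in library pairs 1 to 4, with a log2 ratio to neuron-like cells of 5.65 (4.07 to 7.23). It had a UMI in 17.0% of Hex-C cells at full depth (median 10404 UMIs) and in 0.227% of neuron-like cells (median 3183 UMIs), and in 0.833 and 0% after thinning, where 0% of 4792 cells allows up to 0.0770% (exact binomial). Cpr47Ef was at 4.81, 9.32, 1.51 and 1.94 CPM and Cpr30B at 0.481, 1.00, 1.35 and 1.36 CPM. For Cpr47Ef the highest Hex-C cell alone held 38 UMIs, and the muscle-like cells were at 2.07 CPM against 3.57 CPM. Cpr30B had 65.3% of its UMIs in the unnamed clusters, with 7.73 CPM in the 4401 cells led by Sr-CI against 1.22 CPM. The leading members of the other classes were lower in the Hex-C cells than in the neuron-like cells. Cpr64Ad was at 10.8 CPM, Cpr64Ab at 9.09 CPM, Cpr65Ea at 5.74 CPM and Cpr51A at 3.95 CPM, against 99.8, 36.6, 31.2 and 24.8 CPM. The first of these rests largely on pair 3, and by pair Cpr64Ad was at 10.6, 8.03, 10.7 and 12.9 CPM in the Hex-C cells against 23.5, 18.1, 292 and 33.2 CPM. Cpr49Ac was not particular to the Hex-C cells. Most of its UMIs, 77.8%, lay in the unnamed clusters, with 58.8 CPM in the 1551 cells led by hll, of which 1272 came from pair 1, and 324 CPM in a cluster led by Ance (11.9, 603, 226 and 665 CPM by pair).

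Among the unnamed clusters, the 572 cells led by Ance, a peptidase related to angiotensin-converting enzyme, with esg among their leading genes, held 1.14% of Cpr UMIs. Cpr51A was at 2443 CPM there, with 1328, 3024, 2623 and 3402 CPM in library pairs 1 to 4, which gave 334, 70, 77 and 91 of the cells. Cpr64Ab was at 1155, 1315, 377 and 592 CPM and Cpr56F at 36.2, 228, 632 and 637 CPM. The 51 cells led by eloF, a fatty acid elongase, had Cpr65Ea at 6034 CPM and Cpr51A at 1690.2 CPM, but 3248 of the 4384 UMIs of Cpr65Ea came from pair 4, and its level by pair was 1644, 3662, 2440.0 and 9720.3 CPM. The 111 cells led by spok, an enzyme of ecdysone synthesis, had Cpr49Ag at 221, 20.3, 87.2 and 116 CPM by pair, in 25.2% of cells. Cpr64Ab was at 757 CPM there, with 1563 of 1595 UMIs in pair 3. Cpr67Fb and Cpr49Ab were on in the neuron-like cells relative to muscle-like cells (background 22.7% of features), both low, Cpr67Fb at 2.85, 3.54, 3.72 and 3.24 CPM and the other at 0.841 CPM. Cpr67Fb was higher, at 57.4 CPM from 48 UMIs, in the 317 cells led by CG43085, whose cluster passed 4 glia markers. By pair it was at 37.2, 59.7, 62.0 and 55.5 CPM there. In muscle-like cells (background 15.1%) Cpr78E was on at 7.66, 7.77, 3.58 and 5.34 CPM. Cpr73D was highest in the 228 cells led by CG12011, at 98.2 CPM. By pair it was at 10.3, 172, 338 and 463 CPM there, and 178 of these cells came from pair 1. Cpr76Bc, which was on in no class, reached 25.2 CPM in the 840 cells with the neuroblast genes wor, dpn and ase among their leading genes. It had a UMI in 1.55% of them and was at 4.39, 26.5, 36.1 and 27.3 CPM by pair.

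The 15 detected members that were on in no class missed the call at different steps. Cpr76Ba and Cpr76Bb were at 157 and 224 CPM in the Ccp84A cells, which held 95.2 and 97.5% of their UMIs, but had no UMI in the 62 cells of pair 1. In the other 3 pairs Cpr76Ba was at 50.2, 268 and 193 CPM and Cpr76Bb at 85.6, 248 and 385 CPM. Cpr78Cb was at 0.501, 206, 50.5 and 58.4 CPM in the Tweedle cells, and Cpr67B at 2.22, 23.3, 5.56 and 71.6 CPM in the Ccp84A cells, so that pair 1 was again the lowest in both. The others, Cpr5C, Cpr76Bc, Cpr92A, Cpr47Ec, Cpr49Ah, Cpr78Ca, Cpr72Ec, Cpr60D, Cpr30F, Cpr11B and Cpr65Au, had 41 to 313 UMIs in all. A further 10 members had UMIs without being detected. Cpr47Ee had 153 UMIs but none in at least 1 pair, and Cpr76Bd, Cpr47Ed, Cpr49Ad, Cpr65Ay, Cpr72Eb, Cpr50Ca, Cpr65Aw, Cpr65Az and Cpr72Ea had 2 to 17 each. Cpr57A and Cpr65Ax1 had none. Since a near-identical copy can take reads away from Cpr65Ax1, its count of 0 is uncertain, and for Cpr57A a count of 0 in 230848097 UMIs allows up to 3 UMIs.

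By position, 35 members on 3L held 88.4% of Cpr UMIs, 21 on 2R held 9.55%, and the 5 on 3R, 5 on 2L and 4 on X held 1.35, 0.656 and 0.0788%. In the reference annotation 47 members form 14 runs with at most 2 other protein-coding genes between neighbours. Runs behaved in different ways. The 4 genes of the Cpr64A run were on together in the CG12519 cells (7.23% of all features). The 3 of Cpr65E and the 3 of Cpr67F were on together in the Tweedle cells (10.3%). Of the 7 genes of the Cpr49A run 6 were on in some class, where 57.1% of all features were. Cpr49Ab, at 0.841 CPM in the neuron-like cells, and Cpr49Af, at 3.40 CPM in the Ccp84A cells, were low. Cpr49Ae was on in the CG12519, Tweedle, sensory and Ccp84A cells, Cpr49Aa, Cpr49Af and Cpr49Ag in the Ccp84A cells, Cpr49Ac in the Hex-C cells and Cpr49Ab in the neuron-like cells, while Cpr49Ad had 10 UMIs. The 7 genes of the Cpr47E run had 3 on in the Tweedle cells (10.3% of features), led by Cpr47Eg, and Cpr47Ef on in the Hex-C cells (14.5%). The Cpr65Ay and Cpr65Az run had 12 UMIs and the run of Cpr72Ea, Cpr72Eb and Cpr72Ec 68 UMIs, and no member of these was on.

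Other families of cuticle genes were divided among the classes as well. Of all features with at least 20 UMIs, 57.1% were on in some class, 9.55% in the Ccp84A cells and 10.3% in the Tweedle cells. Of 28 proteins with the same consensus under older names, 18 were on in some class, 13 of them in the Ccp84A cells, whose name rests on such genes, and 9 in the Tweedle cells. Ccp84Ag was at 16270.5 CPM in the CG12519 cells and 1451 CPM in the Ccp84A cells, Ccp84Ae at 1642 CPM in the CG12519 cells, and Lcp65Ag2, one of a pair of near-identical genes, at 2308 CPM in the Tweedle cells. Of 26 Tweedle genes 23 were on, 20 of them in the Tweedle cells, which were named for them, but the one with the most UMIs, Twdlbeta, was at 24048.5 CPM in the CG12519 cells and 85.2 CPM in the Tweedle cells. Of 24 Osiris genes 19 were on. Osi15 and Osi20 were at 59369.9 and 42738 CPM in the trh cells and 30685 and 19807 CPM in the CG12519 cells, and Osi6 was at 20650.0 CPM in the Tweedle cells.

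Genes that make and harden the chitin matrix were found across these classes. All 13 genes for chitin synthesis and assembly were on in at least 1 class, where 57.1% of all features were. By class, 12 were on in the Tweedle cells (10.3% of features), 10 in the Ccp84A cells (9.55%) and 9 in the CG12519 cells (7.23%). The sensory clusters had 9 (12.9%), the trh cells 8 (4.94%) and the Hex-C cells 1 (14.5%). The Hex-C call was Idgf6, a chitinase-like protein, at 753 CPM. obst-A, a chitin-binding protein of the assembling matrix, was at 4196 CPM in the Tweedle cells and exp at 694 CPM in the CG12519 cells. Of 10 genes for sclerotisation and pigment, 5 were on in the Ccp84A cells, 4 in the Tweedle cells and 4 in the neuron-like cells. In the neuron-like cells 22.7% of features were on. Ddc, dopa decarboxylase, was at 572 CPM in the Ccp84A cells, and ple, tyrosine hydroxylase, at 244 CPM in the Tweedle cells, and both genes also make dopamine in neurons. All 11 zona pellucida matrix genes were on, 10 of them in the Tweedle cells, where dyl was at 1468.0 CPM. Of 8 transcription factors of the cuticle programme 7 were on, and ftz-f1, a nuclear receptor of the ecdysone response, was at 1091 to 2803 CPM in the 6 cell classes. It was also at 1135 CPM in the muscle-like cells and 1452 CPM in the other clusters, and the neuron-like cells were the exception at 234 CPM.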

How the data were processed

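Single-cell RNA sequencing counts of whole stage 17 embryos were analysed, 8 libraries of 1 condition. The authors aligned reads to BDGP6 (BDGP6.22 by the methods) and counted UMIs per gene with Cell Ranger 3.1.0, by the submitters' processing notes. They deposited 1 aggregated table of counts, with no map from its numbers 1 to 8 to samples. Whether aggregation equalised depth is not given in the sources used here. Members and lists were chosen with earlier results of these data known.

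Barcodes under n and n + 4 were summed. Cells with at least 200 genes and under 20% mitochondrial UMIs were scaled to 10000 UMIs, log-transformed and clustered with scanpy 1.11.5 and leidenalg 0.10.2 (2000 variable genes without Cpr and mitochondrial genes, 50 principal components, 15 neighbours, resolution 1.0, seed 1). A class needed at least 3 markers of its list, each with a log2 ratio of at least 1 against other cells and a UMI in at least 10% of cells, and its defining genes. The neuron-like and muscle-like classes needed 7. These thresholds, and the Ccp84A class, were set after the clusters were seen. No doublet caller was run, and leaving out the deepest 8% of cells was an alternative.

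Ratios to neuron-like cells were computed pair by pair with 0.5 UMI added to each count, and their intervals use 3 degrees of freedom. With 4 pairs the smallest p of an exact paired permutation test is 0.125, so none was run. Intervals for counts are exact at 95%. The call rule was tested on simulated counts with the same gene means in every library pair, so their pairs differed by counting error only. That test does not cover these data, where the highest pair of a call exceeded the lowest 5.24 times in the median. Values by library pair are given for the 10 members with the most UMIs in their leading classes and the 5 on members with the largest CPM per class, and at most 3 genes per other list are named by UMIs. Other members with values were named after their values were seen. The annotation (BDGP6.54) was used for names and neighbours, and coordinates and sequences are not given here. All 70 members matched it.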

Additional observations from a re-analysis of the deposited data

Results flagged for a closer look

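Of 32 values with 4 library pairs each, 8 had a pair whose gap to the nearest other pair took more of the range than Dixon's 95% limit allows. Chance gives about 1 in 20 for independent normal values. The 32 values share cells and rest on unequal cell numbers, so the 8 cannot be set against that rate. Library pair 1 stood apart in 5 of them. It was the highest for Cpr66D in the CG12519 cells at 8588.14 CPM, for Cpr49Ac in the Hex-C cells at 66.3774 CPM and for the Cpr share of UMIs of the Hex-C cells at 0.0117363%. It was the lowest for the Cpr share of UMIs of the sensory clusters at 0.164858% and of all kept cells at 0.534662%. The other 3 were values of library pair 2 in the trh cells, which rest on 2 cells. They were Cpr66D at 9123.34 CPM, Cpr64Aa at 195.5 CPM and the Cpr share of UMIs at 2.92762%.

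The 10599 cells removed by the filters, which enter no comparison, held 26886 Cpr UMIs, 0.123% of their UMIs and 1.24% of all Cpr UMIs.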

How the results depend on the processing

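The samples form 1 group, so no replicate block between sample groups could be fitted, and ratios between cell classes were taken within each library pair throughout. Of 308 values under alternatives, 272 stayed near the first value and 36 moved, and the cause was not tested. Settings of the call rule cannot change the shares or the number detected, so part of the 272 was fixed in advance. A share counted as near when its change was under its standard deviation between library pairs. That limit was wide for the trh share, which counted as near at 0.2245% without pair 1. Members on in at least 1 class ranged from 37 to 54 and detected members from 51 to 59. With 5 times the background, 8 members were on in the CG12519 cells, 1 in the Hex-C cells and 7 in the sensory clusters, and with muscle-like cells as the background 1 was on in the Hex-C cells. With the deepest 8% of cells left out, 8 were on in the CG12519 cells, 1 in the Hex-C cells and 1 in the trh cells. The shares of Cpr UMIs were then 50.64% in the CG12519 cells, 22.22% in the Ccp84A cells, 6.642% in the sensory clusters and 0.1541% in the Hex-C cells. With cells placed one by one by marker UMIs, 8 were on in the CG12519 cells and 30 in the trh cells, with shares of 48.09% in the CG12519 cells, 24.42% in the Tweedle cells, 8.37% in the trh cells, 0.5929% in the Hex-C cells and 15.87% in other cells. At resolution 2.0, 7 were on in the sensory clusters and 8 in the trh cells, with shares of 46.43% in the CG12519 cells, 25.43% in the trh cells and 1.261% in the sensory clusters. The trh class there took in cells of the CG12519 class. With library pairs weighted alike, 23 were on in the CG12519 cells, 6 in the trh cells, 31 in the Tweedle cells, 31 in the sensory clusters and 40 in the Ccp84A cells. That rule does not ask a member to pass in each pair, so it is easier to pass. Shares of all features on were computed for the first rule and without pair 1 only. Counts under the other alternatives therefore stand without such a share. The share of other cells was 1.548% at resolution 0.5, 1.487% with Cpr genes among the variable genes, 1.494% without the cuticle lists, 1.536% with a mitochondrial limit of 10%, 1.423% in numbers 1 to 4 and 1.071% in numbers 5 to 8. No trh class formed at resolution 0.5 or in numbers 5 to 8. Leaving out each library pair in turn gave 11 to 17 members on in the CG12519 cells, 3 to 4 in the trh cells, 18 to 23 in the Tweedle cells, 3 to 4 in the Hex-C cells, 13 to 26 in the sensory clusters and 23 to 38 in the Ccp84A cells, the highest of the last 2 without pair 1. The trh share ranged from 0.2245 to 1.444%. Leaving the 9 cells of 100 or more Cpr UMIs out of the background, an alternative chosen after seeing the data, gave 13 members on in the CG12519 cells, 4 in the trh cells, 19 in the Tweedle cells, 3 in the Hex-C cells, 14 in the sensory clusters and 25 in the Ccp84A cells.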
